A study of Mus musculus with 12 samples.

Results

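Kidneys of mice that had been exposed to hypoxia before surgery were compared after bilateral renal ischemia-reperfusion injury (RIRI) or after sham surgery. RIRI was made by clamping both renal pedicles for 45 min through the abdomen, and the kidneys were taken after 12 h of reperfusion. Hypoxic preconditioning was given in a chamber at normal pressure with 8% oxygen, for 2 h, 4 h and 8 h on days 1, 2 and 3, to both groups of this comparison, so that the preconditioned sham mice are exposed animals and not untouched ones. The comparison uses 6 of the 12 libraries of the series, 3 preconditioned RIRI and 3 preconditioned sham, each from 1 mouse. The other 6 are normoxic RIRI and normoxic sham, which had no hypoxic exposure. They serve to test whether the response to RIRI differed between the 2 backgrounds, and they also enter the estimate of the spread between mice, which the fit shares over all 12 libraries. The labels give genotype WT, whole kidney tissue and 1 batch number for all libraries, and no strain, sex or age entered the analysis. Genes were kept where FPKM, the fragments counted per unit of gene length and library size, was at least 1 in at least 3 of the 6 preconditioned libraries. That rule kept 11934 of the 25553 genes in the table, or 46.7%. Among them, 221 reached this minimum in RIRI libraries only and 162 in sham libraries only.

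Clamping the renal pedicle stops oxygen and nutrient supply, and reflow then brings oxidants and leukocytes into tissue whose tubule cells live on mitochondrial oxidation. The proximal tubule, which reabsorbs most of the filtrate, and the thick ascending limb, which makes the medullary salt gradient, carry the heaviest transport load. Injured tubule cells lose transporters and brush border enzymes, and they produce secreted injury markers, chemokines and repair factors. Brief sublethal hypoxia before such an insult is used as a preconditioning stimulus, and the title of the study names the interleukin-17A (IL-17A), IL-17RA and TRAF6 signalling axis as the question behind it.

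Library totals recovered from the table were 33107581 to 35713247 fragments. Counting error was not set against the differences between mice, and it weighs most on genes of low FPKM. The libraries were kidney by their defining markers. The proximal tubule phosphate transporter Slc34a1 had FPKM of 2022, 2126 and 2036 in preconditioned sham replicates 1, 2 and 3, and the thick ascending limb gene Umod had 1718, 1584 and 1539. Across the tested genes, Pearson correlations of log2(FPKM + 1) were 0.992 to 0.995 among preconditioned sham, 0.986 to 0.991 among preconditioned RIRI, and 0.926 to 0.952 between the 2 groups. Genes are not independent replicates, and these values only describe the libraries. The median SD of log2(FPKM + 1) over 3 mice was 0.119 in RIRI and 0.0838 in sham kidneys of preconditioned mice, and 0.145 and 0.0821 in those of normoxic mice. The injured kidneys were thus more unlike each other than the sham kidneys on either background, and replicate 2 stood apart among the preconditioned RIRI libraries, as detailed further on.

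RIRI changed 52.8% of the tested genes in preconditioned kidneys. With limma on log2(FPKM + 1) and a Benjamini-Hochberg adjusted p under 0.05 over all genes tested, which is what "called" means throughout, 3954 genes (33.1%) were higher and 2349 (19.7%) were lower in preconditioned RIRI than in preconditioned sham. At least 2-fold changes were fewer, 565 genes higher (4.73%) and 461 lower (3.86%). The 3 RIRI values lay outside the range of the 3 sham values for 7586 genes (63.6%). The excess of higher over lower calls rests on the scaling: 62.7% of the calls were higher on the FPKM as deposited, 51.9% once libraries were rescaled by median ratios and 50.9% once quantile normalized. The median log2 difference over all genes was 0.09 as deposited and 0.01 after either rescaling. In what follows, values in sequence are FPKM of replicates 1, 2 and 3, differences are RIRI minus sham in log2(FPKM + 1) with the standard error (SE) of the fit, and adjusted p are from limma. Replicates with the same number in 2 groups are treated as unpaired, since nothing in the labels pairs them. Wherever a gene list below has 0 members called in a direction, limma also found 0 there at an unadjusted p under 0.05, and limma voom on recovered fragments called 0. Counts called in a list are to be read beside the 33.1% higher and 19.7% lower over all genes.

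The largest increases included the standard markers of tubule injury. Lcn2 encodes neutrophil gelatinase-associated lipocalin, an iron-siderophore binding protein of stressed tubules (chromosome 2, 32384637 to 32387739, GRCm38). It had FPKM of 5.22, 3.16 and 3.90 in the sham and 775, 526 and 890.3 in the RIRI kidneys, a difference of 7.15 ± 0.26 (adjusted p = 1.99e-08). No sham kidney came near any RIRI kidney, and replicate 2 was the lowest of the 3. Havcr1, kidney injury molecule 1 of the injured proximal tubule (chromosome 11, 46739822 to 46779578), went from 0.884, 0.990 and 1.02 to 673, 127 and 295, a difference of 7.23 ± 0.55 (adjusted p = 1.44e-06). The 3 injured kidneys themselves spanned more than 5-fold. Krt20, a keratin of intestinal and urothelial cells that injured tubules also make (chromosome 11, 99428385 to 99438153), had 0.361, 0.211 and 0.202 in sham and 159.9, 74.8 and 174 in RIRI, and differed by 6.68 ± 0.29 (adjusted p = 3.18e-08).

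The other leading genes did not all have the same order of injured kidneys. Plin2, which coats lipid droplets, had 5.0, 5.08 and 5.19 in sham, where mice were nearly alike, and 339, 61.1 and 356 in RIRI, where replicate 2 was more than 5 times lower than the others. Its difference was 5.01 ± 0.51 (adjusted p = 1.09e-05). Tnfrsf12a, the receptor for the cytokine TWEAK, had 16.2, 18.3 and 14.3 in sham and 355, 228 and 274 in RIRI and differed by 4.04 ± 0.16 (adjusted p = 2.63e-08). Arg2, the mitochondrial arginase, differed by 4.00 ± 0.25. Serpina10, the protein Z-dependent protease inhibitor, had 0.185, 0.388 and 0.266 in sham and 20, 33.2 and 13.4 in RIRI, where replicate 2 was the highest, and differed by 4.09 ± 0.24. The metalloproteinase inhibitor Timp1, the AP-1 subunit Fosl1 and the glutathione transferase Gsta1 were all under 0.4 in every sham kidney. Timp1 had 0.165, 0.198 and 0.339 in sham and 26.7, 22.8 and 19.4 in RIRI, lowest in replicate 3, and Fosl1 had 0.0172, 0.0860 and 0.0177 in sham and 16.5, 7.99 and 18.3 in RIRI. Gsta1, at 0.340, 0.307 and 0.281 in sham and 25.7, 49.1 and 29.5 in RIRI, was highest in replicate 2, and its reads could be shared with the near-identical Gsta2.

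Of 32 genes listed as markers of tubular injury, 29 were tested, and 29 were called higher with a median difference of 2.56, beside 0.09 over all genes. The 5 members Cd44, Krt20, Sox9, Sprr2f and Timp1 met the expression minimum through RIRI libraries alone. Among the 24 that met it in both groups, 24 were called higher, with a median of 2.22. Spp1, the secreted matrix phosphoprotein osteopontin, had the smallest adjusted p of the list, with 490.1, 521 and 615 in sham and 7189.6, 6936 and 7069.6 in RIRI, a difference of 3.71 ± 0.11 (adjusted p = 5.56e-09). Unlike most of the list, Spp1 differed little among the 3 injured kidneys.

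**Figure D1:**
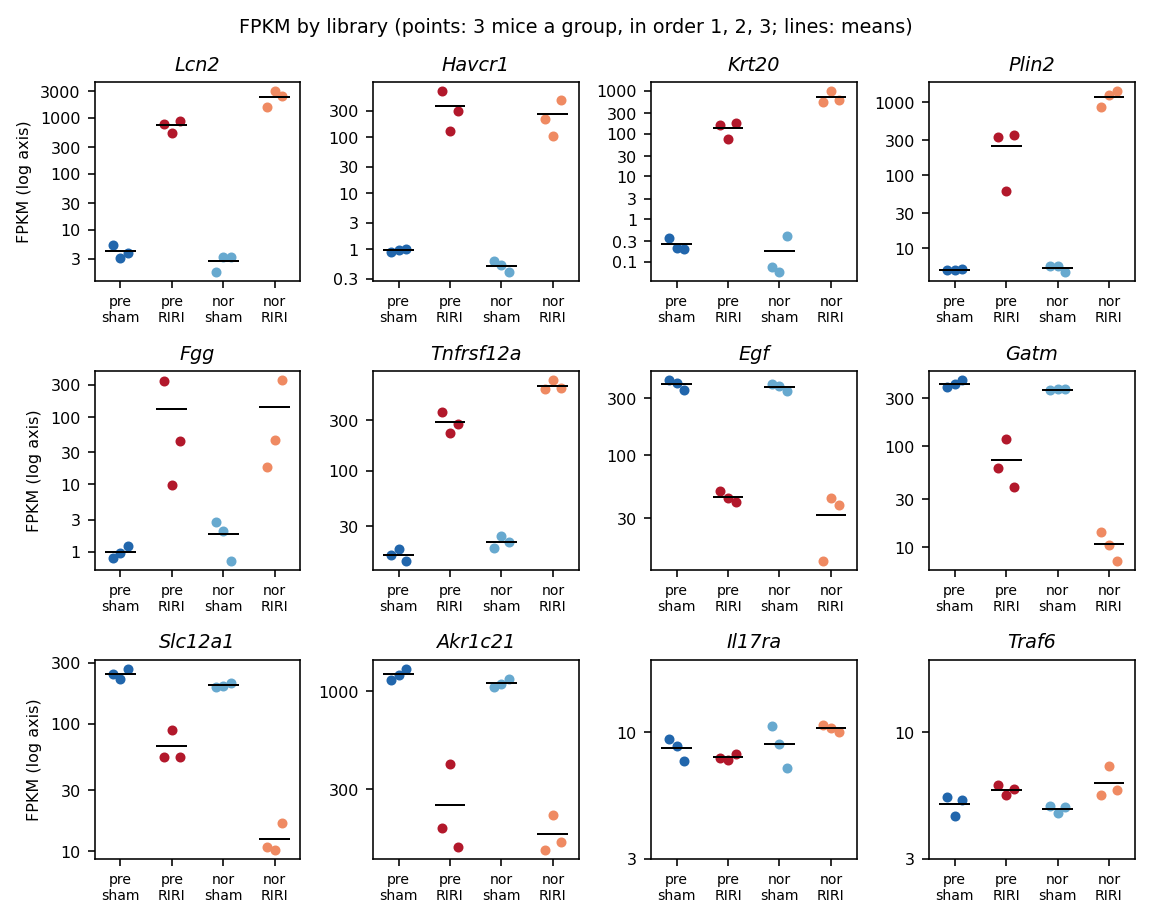
FPKM on log axes, which differ between panels, of 12 genes in each of the 12 libraries; points are single mice in the order of replicates 1, 2 and 3, lines are group means, and pre and nor stand for preconditioned and normoxic. Preconditioned RIRI points lie far from preconditioned sham points in every panel but those of Il17ra, where the groups overlap, and Traf6, where they lie close together.

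The 12 genes named for the size of their fall included several of the distal nephron and of the proximal tubule. Egf, epidermal growth factor, made by the thick ascending limb and distal convoluted tubule (chromosome 3, 129677574 to 129755322), fell from FPKM of 423, 399 and 350.3 in sham to 50.7, 44.5 and 40.8 in RIRI, a difference of -3.08 ± 0.32 (adjusted p = 1.37e-05). Its 3 injured kidneys were alike. Gatm, the rate-limiting enzyme of creatine synthesis in the proximal tubule (chromosome 2, 122594473 to 122611277), had 388, 414 and 454 in sham and 60.5, 117 and 39.9 in RIRI, with replicate 2 the least reduced, and differed by -2.65 ± 0.31 (adjusted p = 2.85e-05). Akr1c21, an aldo-keto reductase that was among the most abundant transcripts of sham kidney, had 1148, 1223 and 1316 in sham and 185, 407 and 148 in RIRI and differed by -2.45 ± 0.29 (adjusted p = 3.28e-05). The others named by size of the fall were Nccrp1 (-3.02), Clec2h (-2.75), the calcium buffer Pvalb of the early distal tubule (-2.65), the steroid enzyme Hsd3b2 (-2.60), Nat8f1 (-2.57), Fam107a (-2.57), the carbonic anhydrases Car5a (-2.55) and Car14 (-2.54), and the brush border protease Mep1b (-2.47). Separation of the 2 groups was a condition for naming these 12 genes, and 63.6% of all tested genes had it in either direction. Nat8f1 has close paralogs among which reads could be divided.

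By nephron segment, the fall was broadest in the proximal tubule. Of 38 proximal tubule markers, 33 were called lower and 0 higher, with a median of -0.85. Median-ratio and quantile scaling gave 33 and 32 lower. The endocytic receptor Lrp2 (megalin) had 200.1, 198 and 208 in sham and 80.1, 94.7 and 73.5 in RIRI, a difference of -1.29 ± 0.10 (adjusted p = 1.54e-06). Slc34a1 differed by -1.47 ± 0.11 (adjusted p = 1.63e-06), the urea cycle enzyme Ass1 by -1.81 ± 0.13 (adjusted p = 7.95e-07), the acyl-CoA synthetase Acsm2 by -0.96 ± 0.07 (adjusted p = 1.07e-06) and fructose-bisphosphatase Fbp1 by -1.53 ± 0.11 (adjusted p = 1.17e-06). The summed FPKM of the list was 21820.1 to 26544 in preconditioned RIRI and 41523 to 47418 in preconditioned sham libraries. In bulk tissue, fewer cells of a type and less RNA of these genes per cell cannot be told apart.

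In the thick ascending limb the members moved unequally. Of 16 tested markers 10 were called lower and 0 higher, with a median of -0.80. Slc12a1, the apical sodium-potassium-chloride cotransporter (chromosome 2, 125152510 to 125230002), fell from 245, 225 and 269 to 54.9, 89.6 and 54.3, a difference of -1.92 ± 0.20 (adjusted p = 1.21e-05), and the secreted protein gene Wfdc15b differed by -2.36 ± 0.15 (adjusted p = 4.52e-07). Umod, the segment's most abundant secreted protein uromodulin, had 1718, 1584 and 1539 in sham and 1475, 1732 and 1608 in RIRI. These ranges overlap, and the difference was -0.01 ± 0.12 (adjusted p = 0.955), or 0.23 with quantile normalization. Kcnj1, the ROMK potassium channel of the same cells, had 80.6, 76.8 and 77.8 in sham and 43.7, 52.9 and 51 in RIRI with a difference of -0.67 ± 0.29 (adjusted p = 0.0697), which misses the threshold although the groups do not overlap. That SE is of the fit shared over all 12 libraries, and it includes the spread of the normoxic kidneys.

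Distal to the loop, 12 of 16 markers of the distal convoluted and connecting tubule were called lower and 1 higher (2 without normoxic RIRI replicate 2 or 3), with a median of -0.52. The aging-related co-receptor Kl (klotho) went from 155, 152 and 153 to 56, 60.7 and 44.8, a difference of -1.50 ± 0.09 (adjusted p = 3.58e-07), and the calcium binder Calb1 differed by -2.02 ± 0.22 (adjusted p = 1.79e-05). The member called higher was the epithelial calcium channel Trpv5, with 3.92, 4.0 and 4.24 in sham and 8.31, 8.78 and 7.36 in RIRI, a difference of 0.86 ± 0.12 (adjusted p = 0.000119). For intercalated cells, which secrete acid or base, 11 of 15 markers were called lower and 0 higher, with a median of -0.61. They included the anion exchanger Slc4a1, from 18.3, 17.7 and 18.9 to 3.12, 5.44 and 1.99, and the proton pump subunit Atp6v1c2, which differed by -0.89 ± 0.09 (adjusted p = 7.92e-06).

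Collecting duct principal cells had the smallest median change of the tubule segments, and their count depends on the setting. Of 15 markers 5 were called lower and 1 higher, with a median of -0.27, while 9 were called lower under either rescaling, 8 without preconditioned RIRI replicate 2, and 3 without RIRI replicate 1, RIRI replicate 3 or sham replicate 3. The glucocorticoid-inactivating enzyme Hsd11b2 had 108, 109 and 102 in sham and 51.2, 77.9 and 50.8 in RIRI, a difference of -0.85 ± 0.14 (adjusted p = 0.000383), and the water channel Aqp4 differed by -1.45 ± 0.27 (adjusted p = 0.000878). The vasopressin-regulated water channel Aqp2 had 315, 273 and 423 in sham and 208, 444 and 222 in RIRI, and its difference was -0.27 ± 0.26 (adjusted p = 0.39). The transcription factor Tfcp2l1 was the member called higher, at 0.32 ± 0.09 (adjusted p = 0.011). Of 10 podocyte markers 1 was called higher and 4 lower, with a median of -0.09. The actin organiser Synpo differed by 0.50 ± 0.09, the chloride channel protein Clic5 by -0.62 ± 0.09 and nephrin, Nphs1, by -0.45 ± 0.11.

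**Figure D2:**
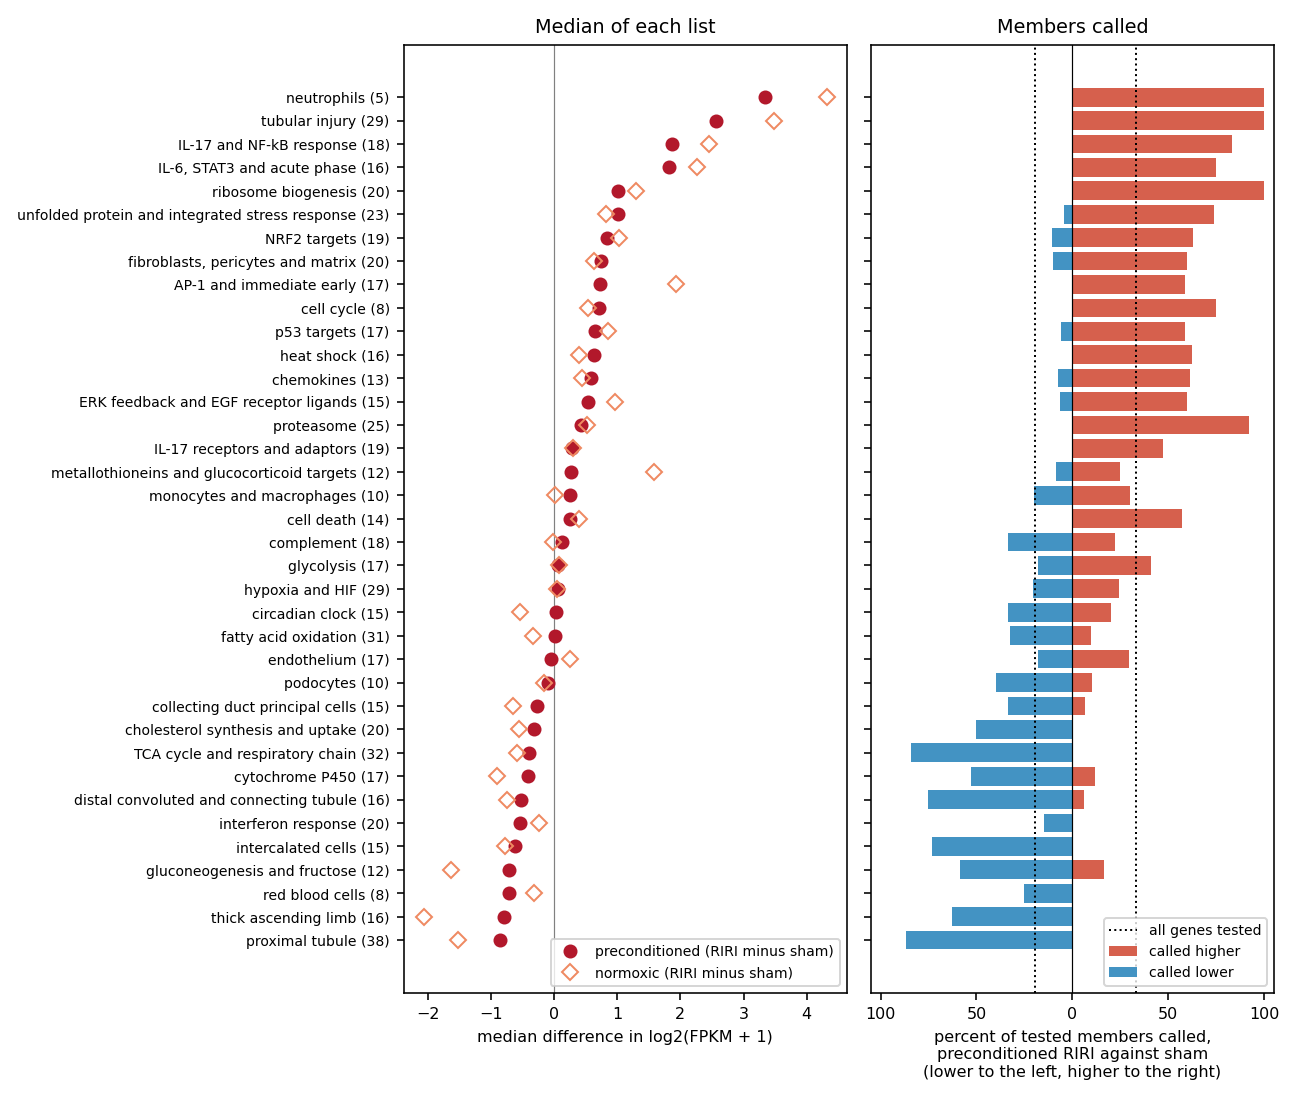
Gene lists with at least 5 tested members, whose number is in brackets: the left panel plots the median RIRI minus sham difference in log2(FPKM + 1) in preconditioned (circles) and normoxic (diamonds) mice, and the right panel the percent of tested members called lower (left) or higher (right) in preconditioned mice, with dotted lines at 19.7% lower and 33.1% higher over all genes. Neutrophil, tubular injury and ribosome biogenesis lists reach 100% higher, and proximal tubule and TCA cycle lists lie farthest to the lower side.

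The axis named in the study's title was measured in part. Il17a was not analysed here. Il17ra, the shared IL-17 receptor subunit (chromosome 6, 120463181 to 120483731), had FPKM of 9.40, 8.80 and 7.65 in sham and 7.86, 7.68 and 8.14 in RIRI. The ranges overlap, and the difference was -0.11 ± 0.11 (adjusted p = 0.446). Traf6, the ubiquitin ligase that relays the receptor's signal (chromosome 2, 101678420 to 101701668), had 5.38, 4.52 and 5.26 in sham and 6.08, 5.50 and 5.83 in RIRI. All 3 RIRI values were above the 3 sham values, yet the difference of 0.17 ± 0.10 (adjusted p = 0.158) missed the threshold. The partner subunit Il17rc behaved otherwise, with 8.27, 8.83 and 8.63 in sham and 18, 19.3 and 21.4 in RIRI, a difference of 1.10 ± 0.10 (adjusted p = 4.36e-06). Over the 19 receptors and adaptors of the pathway, 9 were called higher (47.4%, against 33.1% of all genes) and 0 lower, with a median of 0.28. Among the 9 were the kinase scaffold Ikbkg (NEMO) at 0.75 ± 0.08 (adjusted p = 2e-05) and the NF-kB subunits Rela and Nfkb1.

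Genes that IL-17 and NF-kB are known to induce were mostly higher. Of 18 tested members, 15 were called higher and 0 lower, with a median of 1.86. The minimum was met by 4 of them through RIRI libraries alone, and without these 11 of 14 were called, with a median of 1.63. Icam1, the leukocyte adhesion molecule, had 8.39, 6.68 and 8.67 in sham and 25.2, 21.4 and 23.5 in RIRI, a difference of 1.45 ± 0.12 (adjusted p = 1.88e-06), and the NF-kB subunit Nfkb2 differed by 1.42 ± 0.12 (adjusted p = 3.1e-06). Cxcl1, a neutrophil attractant, had 0.614, 1.41 and 0.190 in sham and 46.5, 12.7 and 20.1 in RIRI, where replicate 1 was the highest, and differed by 3.85 ± 0.46 (adjusted p = 3.53e-05). These members are also induced by other cytokines, and no cytokine was manipulated here.

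Among chemokines as a list, 8 of 13 tested members were called higher and 1 lower, with a median of 0.59, or 5 of 10 and 0.51 without the 3 that met the minimum through RIRI libraries alone. Ccl20, a lymphocyte and dendritic cell attractant, had 0.0731, 0 and 0 in sham and 7.39, 4.02 and 2.35 in RIRI. The member called lower was Cxcl12, the stromal ligand of CXCR4, from 21.5, 19.5 and 23.1 to 6.16, 8.23 and 6.12, a difference of -1.52 ± 0.14 (adjusted p = 5.96e-06). Genes of IL-6 and STAT3 signalling and the acute phase gave 12 of 16 higher and 0 lower, with a median of 1.81, or 9 of 13 and 1.36 without the 3 genes carried by RIRI libraries alone. Their feedback inhibitor Socs3 had 1.06, 1.32 and 1.56 in sham and 21.5, 16 and 16.9 in RIRI, a difference of 3.04 ± 0.19 (adjusted p = 3.94e-07), and Stat3 itself differed by 1.63 ± 0.13 (adjusted p = 2.05e-06). Il6 fell below the expression minimum, with 8.25, 0.471 and 1.14 in RIRI and 0 in every preconditioned sham library, and was not tested.

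The fibrinogen chains Fgg and Fga, acute phase proteins that injured tubules also make, rose with the widest spread. Fgg had 0.818, 0.958 and 1.22 in sham and 340.1, 9.85 and 43.4 in RIRI, so that replicate 1 was far above the others, and differed by 4.78 ± 1.14 (adjusted p = 0.00395). The call ended in 1 of 22 alternatives, limma voom on recovered fragments, where the log2 difference was 5.73 (adjusted p = 0.0897). Fga followed the same order of mice, with 295, 28 and 95 in RIRI against 6.60, 5.48 and 5.40 in sham. Complement genes went both ways. Of 18 tested members 4 were called higher and 6 lower, with a median of 0.13. Without the anaphylatoxin receptor C5ar1 (1.25 ± 0.11) and Masp1, which met the minimum through RIRI libraries alone, 2 of 16 were higher and 6 lower, and the median was -0.05. The central component C3 rose from 3.90, 5.08 and 3.94 to 81.5, 36.1 and 87.9, a difference of 3.62 ± 0.29 (adjusted p = 2.17e-06), while the protease C1s1 fell by 0.84.

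Interferon-induced genes gave few calls. Of 20 tested 0 were called higher and 3 were called lower, a share under the 19.7% over all genes. They were Rsad2 (-1.12 ± 0.23), Cmpk2 (-1.08 ± 0.25) and the transcription factor Irf7, and the median of the list was -0.55. The count turned on single kidneys: 14 members were called lower without preconditioned RIRI replicate 1 and 11 without preconditioned sham replicate 2. Irf7 had 52.7, 21.9 and 34.1 in sham and 37.9, 6.84 and 6.15 in RIRI, and RIRI replicate 1 lay within the sham range while the other RIRI kidneys lay below it. Its difference of -1.44 ± 0.52 (adjusted p = 0.0355) was lost in 6 of 22 alternatives, with adjusted p of 0.146 at most.

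Leukocyte markers are listed here because whole kidney RNA includes infiltrating cells. Of 21 neutrophil genes with a row, 5 passed the minimum and these were called higher, with a median of 3.35, among them S100a8, with 1.20, 0.674 and 0.0771 in sham and 34.4, 7.14 and 13.5 in RIRI, and the integrin Itgam, with 0.206, 0.163 and 0.110 in sham and 1.40, 1.1 and 1.57 in RIRI. Itgam met the minimum through RIRI libraries alone, and without it 4 of 4 were called, with a median of 3.36. The summed FPKM of the list was 555 to 944 in preconditioned RIRI and 7.93 to 12.2 in preconditioned sham libraries, most of it Lcn2, which tubules make. The neutrophil gene Retnlg had 7.36, 0.977 and 4.15 in RIRI and 0.530, 0.0965 and 0.0497 in sham, and was not tested. Other defining genes, Cxcr2, Csf3r and Ly6g, stayed below or near the minimum. Cxcr2 had 1.38, 0.199 and 0.483 in RIRI and 0.0657, 0 and 0.0677 in sham, Csf3r had 1.95, 0.696 and 1.0 in RIRI and 0.177, 0.120 and 0.124 in sham, and Ly6g had 0.217, 0 and 0.0310 in RIRI and 0 in all 3 sham kidneys. Cxcr2, Csf3r and Ly6g were lowest in RIRI replicate 2, whereas the formyl peptide receptor Fpr2 (0.673, 0.305 and 0.157) was lowest in replicate 3 and lactoferrin, Ltf (0.0954, 0.165 and 0.0423), was highest in replicate 2. At such low FPKM the order of replicates is uncertain. The part of these cells in the inflammatory lists was not tested.

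Macrophage genes gave calls in both directions, at shares near the 33.1% higher and 19.7% lower over all genes. Of 10 tested, 3 were called higher and 2 lower (5 higher without normoxic RIRI replicate 2, and 1 lower without any of RIRI replicate 2 or 3 or sham replicate 1 or 3), with a median of 0.26. Cd68, a lysosomal protein of phagocytes, rose from 3.45, 2.0 and 3.46 to 19, 17.3 and 23.7 while the receptor Csf1r fell from 17, 16.5 and 16.7 to 7.70, 8.68 and 7.38. The differences were 2.41 ± 0.16 (adjusted p = 4.84e-07) and -0.99 ± 0.11 (adjusted p = 1.53e-05). The lipopolysaccharide co-receptor Cd14, which tubules can also make, differed by 2.20 ± 0.35. Ly6c2, a monocyte gene, fell by 0.73, a call lost in 6 of 21 alternatives, with adjusted p of 0.1 at most. The summed level was 135 to 138 in preconditioned RIRI and 93.6 to 96.5 in preconditioned sham libraries. T and NK cell genes had 1 tested member, which was not called, and B and plasma cell genes had none. Cd3e was at most 0.205 and the B cell receptor chain Cd79a at most 1.1 in any preconditioned library.

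Red blood cell genes differed widely among the injured mice. Of 8 tested, with a median of -0.72, 2 were called lower, among them the band 3 exchanger Slc4a1, which intercalated cells also express. The haemoglobin gene Hba-a1 had 511, 508 and 621 in sham and 151, 746 and 473 in RIRI, so that RIRI replicates 1 and 3 were below and replicate 2 above every sham kidney, and its near-identical copy Hba-a2 had 53.3, 267 and 166. Without RIRI replicate 2, 8 of 8 members were called lower. Markers of tissue next to the kidney were mostly too low to test. Of 3 tested adipose genes Fabp4 was called higher (0.62 ± 0.16) and Cfd lower (-1.52 ± 0.51, lost in 6 of 22 alternatives, with adjusted p of 0.0731 at most). Untested Adipoq had 0.809, 2.17 and 0.686 in sham and 0.236, 0.0918 and 0.0941 in RIRI. Cidea, Ucp1, Plin1 and Retn were also lower in every RIRI than in every sham kidney, and Lep, near 0, was not. The part of attached fat was not tested. Akr1b7 was the only tested adrenal gene (0.81 ± 0.30, lost in 10 of 21 alternatives, with adjusted p of 0.121 at most), with Cyp11a1 at 0.0468 or less. Of 2 tested muscle genes Pvalb, a distal tubule gene in kidney, was lower, with Acta1 at 0.0554 or less.

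Immediate early and growth signalling genes were raised. Of 17 tested AP-1 and immediate early genes, 10 were called higher and 0 lower, with a median of 0.73, and the 15 that met the minimum in both groups had 8 higher and a median of 0.70. Myc had 2.37, 2.38 and 2.78 in sham and 28.4, 22.9 and 32.6 in RIRI, a difference of 3.03 ± 0.22 (adjusted p = 1.07e-06), and the stress-induced repressor Atf3 had 0.504, 1.23 and 0.443 in sham and 7.05, 7.48 and 8.45 in RIRI, a difference of 2.35 ± 0.18 (adjusted p = 1.28e-06). For Atf3 sham replicate 2 was above the other sham kidneys, and all 3 were below every RIRI kidney. Of 15 genes of ERK feedback and EGF receptor ligands, 9 were called higher and Egf lower, with a median of 0.53, or 8 of 14 and 0.50 without Areg, which met the minimum through RIRI libraries alone. The phosphatase Dusp5 rose to 11.7, 4.78 and 15.1 from 0.565, 1.45 and 0.483, and the receptor ligand Areg, at 0 in 2 of the 3 sham kidneys, had 1.58, 4.77 and 6.78 in RIRI.

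Antioxidant genes moved in both directions. Of 19 NRF2 targets, 12 were called higher and 2 lower, with a median of 0.83, or 11 of 18 higher and 0.79 without Gsta1, which met the minimum through RIRI libraries alone. Sulfiredoxin, Srxn1, which repairs oxidised peroxiredoxins, had 26.3, 24.4 and 23.8 in sham and 121, 102 and 148 in RIRI, a difference of 2.26 ± 0.11 (adjusted p = 9.49e-08), and the pentose phosphate enzyme Pgd differed by 1.74 ± 0.11 (adjusted p = 3.37e-07). Malic enzyme Me1 fell by 0.56 and the epoxide hydrolase Ephx1 fell by 0.60, the latter lost in 13 of 22 alternatives, with adjusted p of 0.196 at most. Metallothioneins, which bind zinc and copper, were the larger movers of a list in which 3 of 12 metallothionein and glucocorticoid-induced genes were called higher, a share under the 33.1% over all genes, and 1 lower, with a median of 0.27. Mt2 rose from 32.3, 37 and 44.5 to 511, 324 and 611 and Mt1 from 57.9, 58.8 and 66.6 to 257, 233 and 333, with differences of 3.60 ± 0.22 and 2.13 ± 0.21, and the glucocorticoid target Klf9 fell by 0.60. Without RIRI replicate 2, 5 of the 12 were called higher.

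Among 17 p53 targets 10 were called higher and 1 lower, with a median of 0.65, or 9 of 16 higher and 0.54 without Tnfrsf10b, which met the minimum through RIRI libraries alone. The cell cycle inhibitor Cdkn1a had 7.67, 5.19 and 5.27 in sham and 54, 33.6 and 72.1 in RIRI, a difference of 2.90 ± 0.27 (adjusted p = 6.87e-06), the death receptor Tnfrsf10b differed by 1.20 ± 0.13, and the stress sensor Sesn1 fell by 0.83. Of 14 cell death genes 8 were called higher and 0 lower (5 higher without sham replicate 2), with a median of 0.25, or 5 of 11 and 0.22 without the 3, Ripk3 among them, carried by RIRI libraries alone. They included the pore former Bak1, from 9.08, 10.3 and 10.3 to 24.7, 22.1 and 23.2, and the necroptosis kinase Ripk3, from 0.224, 0.388 and 0.492 to 1.64, 1.80 and 1.34. Cell cycle genes that passed the minimum, 8 of 19 with a row, were mostly DNA replication factors, of which 6 were called higher and 0 lower, with a median of 0.72. Pcna, the polymerase clamp, had 31.7, 30.7 and 32.3 in sham and 54.7, 56.9 and 49 in RIRI, and the helicase subunit Mcm2 had 5.02, 3.70 and 4.80 in sham and 7.90, 13.9 and 9.45 in RIRI, where replicate 2 was the highest. The mitotic markers Mki67, with 0.181, 0.243 and 0.102 in RIRI and 0.166, 0.166 and 0.194 in sham, and Top2a were below the minimum.

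Protein synthesis and protein turnover genes moved almost as blocks with small spread. All 20 ribosome biogenesis genes of the list were called higher, with a median of 1.02. Nucleolin, Ncl, had 20.2, 19.5 and 21.3 in sham and 44.8, 44.5 and 46.6 in RIRI, a difference of 1.12 ± 0.06 (adjusted p = 1.66e-07), and nucleophosmin, Npm1, had 63.6, 61.3 and 71.2 in sham and 172, 167 and 166 in RIRI, a difference of 1.35 ± 0.08 (adjusted p = 4.06e-07). Of 25 proteasome subunits 23 were called higher and 0 lower, by less, with a median of 0.42. Psmd11 had 32.1, 28.9 and 26.6 in sham and 51.7, 50.7 and 50.4 in RIRI and differed by 0.79 ± 0.07, and Psmd12 differed by 0.52 ± 0.06. Median-ratio rescaling left 19 of 25 called. Heat shock genes gave 10 of 16 higher and 0 lower, with a median of 0.63: the small chaperone Hspb1 had 13.2, 10.4 and 16.8 in sham and 82.6, 61.6 and 103 in RIRI, a difference of 2.52 ± 0.29, and Hspb8 differed by 1.30 ± 0.13.

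The unfolded protein response and the integrated stress response share the kinase branch that raises Atf4, whereas the chaperones of the endoplasmic reticulum are induced chiefly by cleaved ATF6 and by spliced XBP1. Of 23 genes of both responses, 17 were called higher and 1 lower in preconditioned RIRI, with a median of 1.01 (2 lower without normoxic RIRI replicate 1). Without Chac1 and Trib3, which met the minimum through RIRI libraries alone, 15 of 21 were higher, with a median of 0.92. The amino acid and folate enzymes that ATF4 induces had the smallest adjusted p: asparagine synthetase, Asns, had 1.01, 1.21 and 1.13 in sham and 12, 18.6 and 16.1 in RIRI, a difference of 2.95 ± 0.14 (adjusted p = 4.48e-08), and Mthfd2 had 2.01, 1.33 and 1.85 in sham and 11.4, 19.1 and 15.4 in RIRI, a difference of 2.56 ± 0.16 (adjusted p = 3.67e-07). Atf4 differed by 1.42 ± 0.13, and the mitochondrial serine enzyme Shmt2, the member called lower, by -0.77 ± 0.10. Among the chaperones, some rose. The lumenal Hsp70 Hspa5 (BiP, chromosome 2, 34772090 to 34776529) had 201, 178 and 148 in sham and 408, 297 and 359 in RIRI, which do not overlap, a difference of 1.01 ± 0.21 (adjusted p = 0.00195). Sdf2l1, a cofactor of that chaperone, had 13.6, 11.9 and 9.73 in sham and 31.2, 21.8 and 36.1 in RIRI, a difference of 1.25 ± 0.31 (adjusted p = 0.00514).

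Several of those chaperone genes, but not all, are where the 2 backgrounds parted within 1 pathway. In normoxic mice Hspa5 had 322, 286 and 413 in sham and 191, 228 and 351 in RIRI, a difference of -0.44 ± 0.21 (adjusted p = 0.0843), and Sdf2l1 had 23.6, 21.5 and 29 in sham and 7.68, 5.39 and 17 in RIRI, a difference of -1.35 ± 0.31 (adjusted p = 0.00192). The preconditioned minus the normoxic effect was 1.44 ± 0.30 (adjusted p = 0.00667) for Hspa5 and 2.60 ± 0.44 (adjusted p = 0.00235) for Sdf2l1. It was also called and positive for 5 further chaperones, disulfide isomerases or degradation factors of the endoplasmic reticulum. Of these Pdia4 was higher in preconditioned RIRI (0.67) and lower in normoxic RIRI (-0.82), a difference of 1.49 ± 0.26 (adjusted p = 0.00299). The other 4 were not called in preconditioned mice and were called lower in normoxic mice: Hsp90b1 had 0.33 and -1.04, Pdia6 0.32 and -0.59, Dnajb11 0.08 and -0.81, and Herpud1 -0.36 and -1.54. Their differences were 1.37, 0.90, 0.89 and 1.18. Not every such gene parted: for the endoplasmic reticulum chaperone Dnajb9, and for Xbp1, the difference was not called. Both had a positive injury effect in either background. In the other direction went Ppp1r15a (-1.79), Atf4 (-0.80), Mthfd2 (-0.77), Psat1 (-0.71) and Asns (-0.68), which rose less in preconditioned than in normoxic mice. Over the 23 genes of the list the difference was called above 0 for 7 and below 0 for 5, beside 11.5% and 12.3% over all genes. Preconditioned sham kidneys had 176 ± 26.5 and normoxic sham kidneys 341 ± 65.4 of Hspa5 (FPKM, SD, n = 3), so that the difference of effects includes a difference between shams that was not tested here. Calls of the difference were lost for Mthfd2 in 8 of 21 alternatives, with adjusted p of 0.158 at most, for Asns in 7 of 21 alternatives, with adjusted p of 0.34 at most, and for Psat1 in 12 of 21 alternatives, with adjusted p of 0.111 at most. The injury call of Ppp1r15a was lost in 6 of 22 alternatives, with adjusted p of 0.139 at most.

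**Figure D3:**
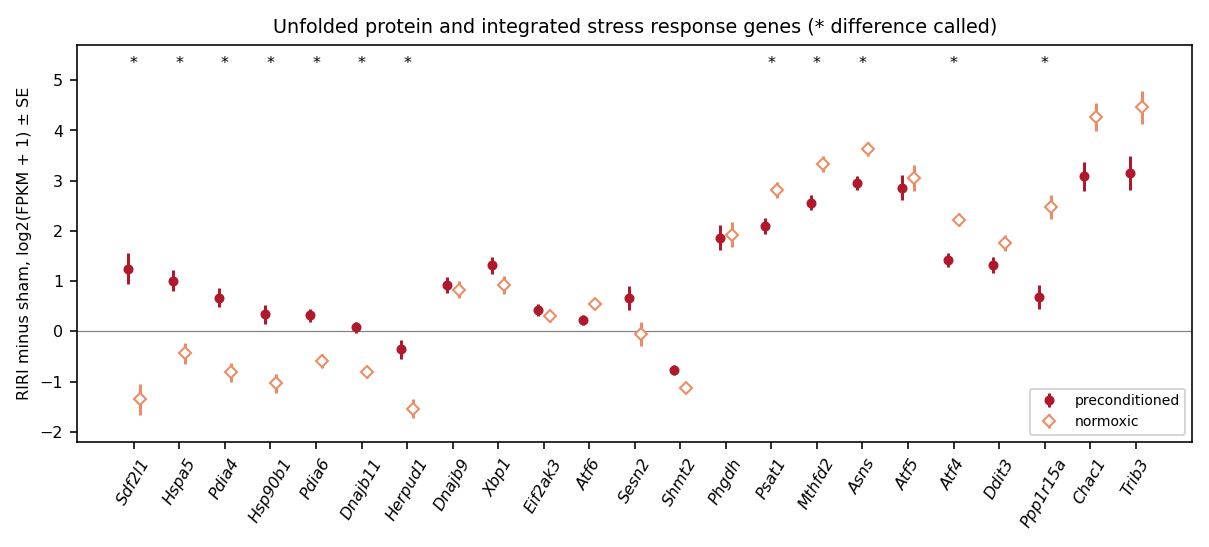
RIRI minus sham in log2(FPKM + 1) with its SE for 23 genes of the unfolded protein and integrated stress responses in preconditioned (filled circles) and normoxic (open diamonds) mice, 3 libraries a group; stars mark genes whose difference between backgrounds was called. For the 7 genes at the left the preconditioned effect lies above the normoxic one, and for Psat1, Mthfd2, Asns, Atf4 and Ppp1r15a it lies below.

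Of the 22 list members with a promoter in the RefSeq table of GRCm38.p6, 3 (13.6%) hold the endoplasmic reticulum stress element, CCAAT and CCACG with 9 bases of any kind between them, searched on both strands in the 250 bases before the gene's start. They are shown because all 3 are chaperone genes with a called positive difference. The element, to which ATF6 with NF-Y is known to bind, is in capitals. Positions are chr2:34771840-34772089 on the plus strand for Hspa5, chr10:86705445-86705694 on the minus strand for Hsp90b1 and chr12:17266339-17266588 on the plus strand for Pdia6. In Hsp90b1 the element occurs once on each strand.
Hspa5: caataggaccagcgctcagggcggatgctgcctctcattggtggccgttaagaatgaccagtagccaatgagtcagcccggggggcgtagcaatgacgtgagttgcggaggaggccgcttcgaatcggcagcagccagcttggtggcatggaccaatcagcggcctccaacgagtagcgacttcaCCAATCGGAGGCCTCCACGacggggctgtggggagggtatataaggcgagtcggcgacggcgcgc
Hsp90b1: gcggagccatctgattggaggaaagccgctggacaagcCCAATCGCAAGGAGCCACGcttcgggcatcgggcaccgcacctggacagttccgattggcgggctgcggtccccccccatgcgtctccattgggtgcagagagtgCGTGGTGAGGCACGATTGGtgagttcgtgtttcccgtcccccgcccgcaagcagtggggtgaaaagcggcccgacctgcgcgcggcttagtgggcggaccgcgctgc
Pdia6: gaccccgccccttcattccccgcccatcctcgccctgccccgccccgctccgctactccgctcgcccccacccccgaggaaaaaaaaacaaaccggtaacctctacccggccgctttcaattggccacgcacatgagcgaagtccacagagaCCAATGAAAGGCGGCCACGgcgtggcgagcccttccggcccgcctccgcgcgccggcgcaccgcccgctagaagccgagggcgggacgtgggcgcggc
Of 27025 genes whose promoter that table gives, 35 (0.13%) hold the element, and of the 9432 among them that were tested 14 (0.148%) do. A match describes the sequence only, and whether the element goes with the difference of effects was not tested. Pdia4 and Sdf2l1, whose differences were above that of Hspa5, hold no match to these letters in this window. Nor do Dnajb11 and Herpud1, whose differences were also called and positive.

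Energy metabolism fell in its mitochondrial core. Of 32 genes that encode TCA enzymes or respiratory chain subunits, 27 were called lower and 0 higher, with a median of -0.39. Idh2, mitochondrial isocitrate dehydrogenase, had 93, 94.1 and 98.5 in sham and 45.1, 49.5 and 47.1 in RIRI, a difference of -1.0 ± 0.07 (adjusted p = 5.96e-07), and Sdha of complex II had 322, 318 and 324 in sham and 223, 224 and 230.2 in RIRI, a difference of -0.51 ± 0.06 (adjusted p = 2.75e-05). Genes of the mitochondrial genome were not analysed here. Fatty acid oxidation, the main fuel pathway of the proximal tubule, divided: 3 of 31 genes were called higher and 10 lower, with a median of 0.02. Acad10 fell by 0.64 and the electron transfer subunit Etfa fell by 0.50, while the carnitine carrier Slc25a20 and the transferase Cpt2 rose by 0.54 ± 0.13 and 0.55 ± 0.14. Without RIRI replicate 2, 7 were called higher, and without normoxic RIRI replicate 2, 6.

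Cyp4a14, a fatty acid hydroxylase that the receptor PPARA is known to induce, was among the genes that differed most between the injured mice. It had 28.3, 60.3 and 51.8 in sham and 88.3, 14.2 and 91.1 in RIRI, where replicate 2 lay below the sham range. The difference was 0.13 ± 0.75 (adjusted p = 0.894), and it changed sign to -0.28, -0.31 and -0.19 when RIRI replicate 1, RIRI replicate 3 or sham replicate 1 was left out. Plin2, Fgg, Fga and Irf7 also scattered widely among the injured preconditioned mice. The SD of log2(FPKM + 1) was 1.49 for Cyp4a14, 1.44 for Plin2, 2.50 for Fgg, 1.68 for Fga and 1.37 for Irf7, beside a median of 0.119 over all genes.

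Genes of glucose release fell, and those of glycolysis moved both ways. Of 12 genes of gluconeogenesis and fructose use, 7 were called lower and 2 higher, with a median of -0.72. Glucose-6-phosphatase, G6pc, the last step of glucose release, had 266, 264 and 296 in sham and 43, 75.1 and 81.4 in RIRI, a difference of -2.08 ± 0.21 (adjusted p = 1.23e-05), and ketohexokinase, Khk, had 392, 433 and 379.6 in sham and 188, 170.1 and 158 in RIRI, a difference of -1.22 ± 0.10 (adjusted p = 1.86e-06). The members called higher were Pck2 (0.62 ± 0.16) and Fbp2 (0.64 ± 0.24, lost in 9 of 22 alternatives, with adjusted p of 0.14 at most). Glycolysis gave 7 of 17 higher and 3 lower, beside 33.1% and 19.7% over all genes, with a median of 0.06, which was -0.04 after median-ratio rescaling. Without Hk2, which met the minimum through RIRI libraries alone, 6 of 16 were higher. Hexokinase Hk2 rose from 0.112, 0.195 and 0.131 to 1.35, 1.42 and 1.13 and the glucose transporter Slc2a1 from 27.1, 26.9 and 28.9 to 56.6, 50.9 and 52.6, whereas lactate dehydrogenase Ldhb fell by 0.46.

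Of 29 targets of hypoxia-inducible factors 7 were called higher (6 of 28 without Hk2) and 6 lower, near or under the 33.1% and 19.7% over all genes, with a median of 0.06 that was -0.04 after median-ratio rescaling, and 4 were called higher under either rescaling and without RIRI replicate 1, RIRI replicate 2 or sham replicate 2. The vasodilator peptide Adm had 3.24, 3.51 and 3.68 in sham and 11.2, 7.75 and 13.1 in RIRI, a difference of 1.36 ± 0.16 (adjusted p = 3.53e-05), while the carbonic anhydrase Car12 differed by -1.11 ± 0.16 (adjusted p = 0.000125) and the mitophagy receptor Bnip3l by -0.51 ± 0.11 (adjusted p = 0.00183). Both groups had been exposed to hypoxia, so that this count compares RIRI with sham among exposed mice. Of the 29 genes the difference of effects was called above 0 for 3 and below 0 for 5, beside 11.5% and 12.3% over all genes. In cholesterol synthesis and uptake 10 of 20 were called lower and 0 higher, with a median of -0.31. The demethylase Cyp51 had 66.3, 62.8 and 65.7 in sham and 16.1, 18.1 and 10.6 in RIRI, a difference of -2.08 ± 0.19 (adjusted p = 5.14e-06), and Nsdhl differed by -1.17 ± 0.17 (adjusted p = 0.000171). Of 17 cytochrome P450 genes, with a median of -0.41, 9 were called lower, Cyp2d26 by -1.77 ± 0.17 among them, and 2 higher, Cyp2a5, from 87, 53.6 and 49.2 to 209, 595 and 511, and Cyp4a12a, both of which have near-identical neighbours.

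Vessels and stroma gave mixed counts. Among 17 endothelial genes 5 were called higher and 3 lower, shares near the 33.1% and 19.7% over all genes, with a median of -0.05. Nitric oxide synthase Nos3 had 2.35, 2.45 and 2.87 in sham and 7.76, 5.18 and 8.82 in RIRI, a difference of 1.19 ± 0.15 (adjusted p = 4.96e-05), and the VEGF receptor Kdr had 12.1, 12.4 and 11.9 in sham and 8.36, 8.06 and 7.41 in RIRI, a difference of -0.56 ± 0.08 (adjusted p = 0.000198). The trafficking protein Ehd3, of glomerular endothelium, fell by 0.59. After median-ratio rescaling 5 were called lower. Of 20 genes of fibroblasts, pericytes and matrix, 12 were called higher and 2 lower, with a median of 0.75, or 9 of 17 and 0.58 without the 3 carried by RIRI libraries alone. Basement membrane collagen Col4a1 had 43.4, 45.2 and 49.3 in sham and 115, 95.6 and 115 in RIRI, a difference of 1.22 ± 0.09 (adjusted p = 8.14e-07). The fibroblast proteoglycan Dcn fell by 1.03 and the pericyte gene Rgs5 fell by 0.53, the latter lost in 2 of 22 alternatives, with adjusted p of 0.0767 at most.

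Clock genes gave calls in both directions, with a median of 0.02. Of 15 tested 3 were higher, under the 33.1% over all genes, and 5 were lower, beside 19.7%. The repressor Nr1d1 had 13.3, 42.9 and 36.7 in sham and 2.40, 11 and 5.21 in RIRI, a difference of -2.18 ± 0.43 (adjusted p = 0.00128), and Tef, a clock output factor, differed by -1.61 ± 0.32 (adjusted p = 0.00138), while the repressors Bhlhe40 and Cry1 rose by 1.11 ± 0.14 and 1.15 ± 0.22. In each group Nr1d1 varied more than 3-fold between mice, with replicate 2 the highest in both. The labels used here give no time of day. Without RIRI replicate 2, 5 were called higher, and without RIRI replicate 1, RIRI replicate 3 or sham replicate 3, 3 were called lower.

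How far did the injury response of preconditioned mice differ from that of normoxic mice? The 2 effects share no library. By direction most calls were shared. Of the 3954 genes called higher in preconditioned RIRI, 3507 (88.7%, and 71.5% of those called higher in normoxic RIRI) were called higher in both, and of the 2349 called lower 2156 (91.8%, and 59.6% of those called lower in normoxic RIRI) were called lower in both. In size they differed. The 3507 genes had a median effect of 0.52 in preconditioned and 0.77 in normoxic mice, and the 2156 had -0.59 and -0.97. Normoxic RIRI had 8523 called genes (71.4%), 4905 higher (41.1%) and 3618 lower (30.3%), with 1260 (10.6%) and 1175 (9.85%) of them at least 2-fold. The median size of the effect over all tested genes was 0.292 in preconditioned and 0.486 in normoxic mice, and the effects correlated across genes with Pearson's r of 0.895 and Spearman's rho of 0.871, as a description over 11934 genes.

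Tested gene by gene, the difference of the 2 effects was called for 2831 genes (23.7%), 1369 above 0 (11.5%) and 1462 below (12.3%). Among the genes raised by RIRI in preconditioned mice, the difference was called below 0 for 1071 (27.1%) and above 0 for 108 (2.73%). Among those lowered it was called above 0 for 753 (32.1%) and below 0 for 29. Thus where a difference was called it was usually a smaller effect in preconditioned mice. For 2775 raised and 1567 lowered genes no difference was called, which does not show that the effects were equal, since the median SE of the difference was 0.15. Leaving out preconditioned RIRI replicate 2 left 1021 differences above and 1100 below 0.

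**Figure D4:**
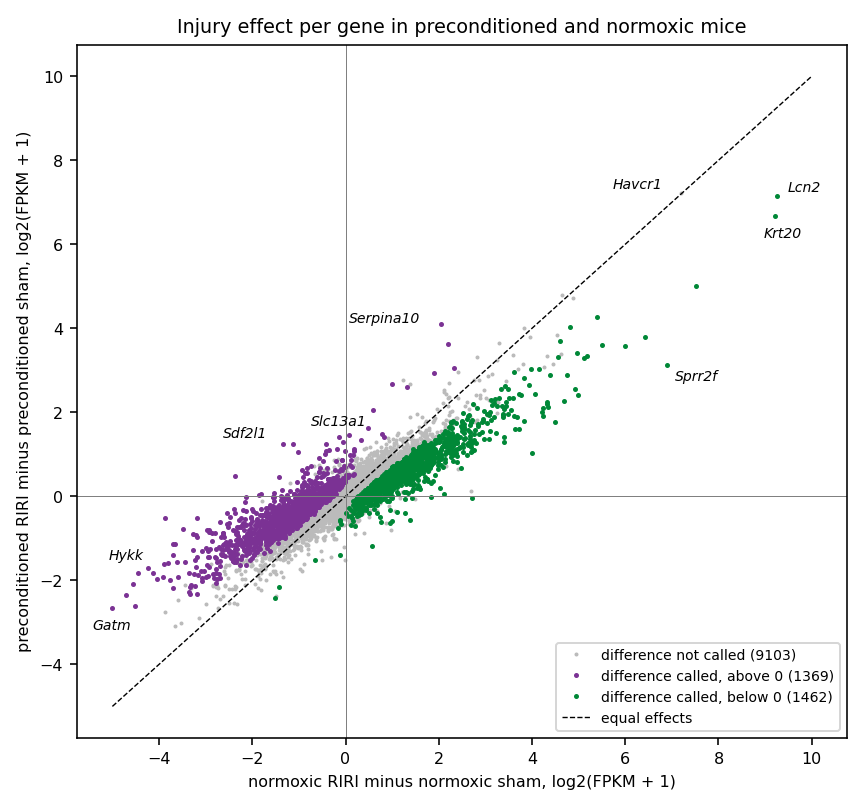
Each point is 1 of 11934 tested genes, plotted by its RIRI minus sham difference in log2(FPKM + 1) in normoxic (horizontal) and preconditioned (vertical) mice, with the dashed line at equal effects. Most called differences lie between the dashed line and a vertical value of 0, on the side of the smaller preconditioned effect, and Serpina10 and Sdf2l1 lie above the line.

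Among genes called in preconditioned mice, the largest differences above 0 were mostly of genes that fell less than in normoxic mice. Hykk, a hydroxylysine kinase (chromosome 9, 54917290 to 54949924), had 58.8, 61.3 and 56.1 in preconditioned sham and 13.7, 24.8 and 15.3 in preconditioned RIRI, against 64.8, 67.3 and 61.8 in normoxic sham and 2.80, 2.11 and 2.62 in normoxic RIRI, and the difference was 2.53 ± 0.23 (adjusted p = 0.000173). Cldn10, a tight junction protein of the thick ascending limb and other segments, had 68.5, 96.6 and 69 in preconditioned RIRI and 16.3, 8.64 and 16.7 in normoxic RIRI, with 166, 175 and 169 in preconditioned and 181, 166 and 189.7 in normoxic sham, and differed by 2.51 ± 0.29 (adjusted p = 0.000458). G6pc and the collecting duct ammonia channel Rhcg gave 2.48 ± 0.30 (adjusted p = 0.00064) and 2.38 ± 0.31 (adjusted p = 0.000725). No normoxic RIRI kidney overlapped a preconditioned one for Hykk or Cldn10. By list, the difference was called above 0 for 21 of 38 proximal tubule and 10 of 16 thick ascending limb markers and below 0 for none of either, where the normoxic medians were -1.51 and -2.06. The share above 0 was 11.5% over all genes and 32.1% among genes lowered in preconditioned RIRI. Gatm, with 60.5, 117 and 39.9 in preconditioned and 14.3, 10.6 and 7.39 in normoxic RIRI, differed by 2.35 ± 0.43 (adjusted p = 0.00355), and Slc12a1 by 2.01 ± 0.28 (adjusted p = 0.00094).

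The largest differences below 0 were of genes near 0 in sham or low there that rose much less in preconditioned mice. Sprr2f, a small proline-rich envelope protein, had 16.6, 4.01 and 8.03 in preconditioned and 101, 119 and 138 in normoxic RIRI and was listed at 0 in 5 of the 6 sham libraries, with a difference of -3.77 ± 0.46 (adjusted p = 0.00064). Vgf, a secreted neuropeptide precursor, was listed at 0 in every sham library and had 3.93, 1.43 and 2.33 in preconditioned and 25.4, 14.3 and 26.7 in normoxic RIRI. Fosl1 had 67.6, 97.5 and 106 in normoxic RIRI, well above its preconditioned values, a difference of -2.63 ± 0.34 (adjusted p = 0.000744). The scaffold Akap12 had 35.8, 12.5 and 29.3 in preconditioned and 119, 181 and 125 in normoxic RIRI, a difference of -2.57 ± 0.41 (adjusted p = 0.00194). Krt20, at 561, 994 and 598 in normoxic RIRI, had a difference of -2.53 ± 0.41 (adjusted p = 0.00197). For Plin2 the difference of -2.50 ± 0.72 (adjusted p = 0.0271) was lost in 8 of 21 alternatives, with adjusted p of 0.0803 at most. These are differences in log2(FPKM + 1), which weigh absolute level for genes near 0 in sham. By limma voom on recovered fragments, the log2 difference was -2.53 for Fosl1 (adjusted p = 0.286), -3.40 for Krt20 (adjusted p = 0.141), -3.23 for Vgf (adjusted p = 0.184) and -1.67 for Timp1 (adjusted p = 0.312), so that these calls ended while the differences were of similar or larger size. Havcr1 did not differ by the test, at 0.03 ± 0.77 (adjusted p = 0.98). Of the 29 tubular injury genes 18 had a called difference below 0 and 0 above, and their normoxic median was 3.48. The share below 0 was 12.3% over all genes and 27.1% among genes raised in preconditioned RIRI. The 29 include Cd44, Krt20, Sox9, Sprr2f and Timp1, which met the minimum through RIRI libraries alone. Srxn1, from the NRF2 list, had 121, 102 and 148 in preconditioned against 454, 529.5 and 503 in normoxic RIRI and a difference of -2.07 ± 0.16 (adjusted p = 7.15e-05).

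For 45 genes the injury effect was called in both backgrounds with opposite signs, 38 higher and 7 lower in preconditioned mice. In some of them the shams differed most. Cyp4a12a, a fatty acid hydroxylase with near-identical neighbours, rose from 12.9, 12.1 and 10.2 to 27.6, 31 and 28.6 in preconditioned and fell from 75.6, 82 and 95.9 to 42.3, 30.2 and 42 in normoxic mice, a difference of 2.38 ± 0.19 (adjusted p = 7.15e-05), so that the RIRI kidneys of both backgrounds were closer to each other than the shams were. Ccl28, a mucosal chemokine, had 2.33, 2.39 and 1.11 in sham and 2.19, 3.78 and 3.25 in RIRI of preconditioned mice, and 6.26, 7.65 and 8.12 in sham and 0.630, 0.476 and 0.700 in RIRI of normoxic mice. Its difference was 2.86 ± 0.27 (adjusted p = 0.000173), but its injury call in preconditioned mice was lost in 17 of 21 alternatives, with adjusted p of 0.211 at most. The others by the rule were the zinc exporter Slc30a1 (0.35 in preconditioned and -0.88 in normoxic mice), Fa2h (-0.59 and 1.00), the carbonic anhydrase Car2 (-0.39 and 0.50) and Tmem176b (0.31 and -0.75). The injury call was lost for Slc30a1 in 8 of 22 alternatives, with adjusted p of 0.188 at most, and for Tmem176b in 13 of 22 alternatives, with adjusted p of 0.158 at most.

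Some genes changed at least 2-fold in preconditioned mice, were not called in normoxic mice and had a called difference. Slc13a1, the sodium-sulfate cotransporter of the proximal tubule, was the clearest, with 179, 177 and 192 in sham and 533, 475 and 450.04 in RIRI. In normoxic mice it had 150.00, 146 and 148 in sham and 157, 112 and 139 in RIRI. Every preconditioned RIRI kidney was more than 2 times as high as any other kidney, and the difference of effects was 1.55 ± 0.15 (adjusted p = 0.000181). It stands against the fall of most proximal tubule transporters. Nuak2, a kinase of the AMPK family, had 25.2, 26 and 25.9 in sham and 90.8, 54.2 and 77.2 in RIRI, and 1.38 ± 0.27 (adjusted p = 0.00492) as the difference. Prr15 had 5.24, 4.28 and 4.64 in sham and 12.9, 13.2 and 13 in RIRI, Serpinh1, the collagen chaperone, 50.5, 51.7 and 35.4 in sham and 126, 109 and 115 in RIRI, Stra6l 3.09, 2.37 and 1.83 in sham and 10.9, 6.60 and 12 in RIRI, and Nat8f5, an acetyltransferase with close paralogs, 16, 17.3 and 9.25 in sham and 41.6, 77.7 and 67.1 in RIRI.

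In the other direction the rule found 2 genes. Glul, glutamine synthetase, had 217, 221 and 259 in preconditioned sham and 82.8, 98.8 and 81.4 in preconditioned RIRI, a difference of -1.40 ± 0.18 (adjusted p = 7.32e-05), against 189.7, 173 and 173 in normoxic sham and 133, 241 and 141 in normoxic RIRI, where it was -0.11. Depp1, a FOXO target, had 9.28, 16.3 and 14.9 in sham and 3.71, 4.08 and 9.07 in RIRI, and its injury call was lost in 5 of 22 alternatives, with adjusted p of 0.0784 at most and its called difference in 9 of 21 alternatives, with adjusted p of 0.0985 at most. The called difference was also lost for Serpinh1 in 7 of 21 alternatives, with adjusted p of 0.09 at most, for Stra6l in 1 of 21 alternatives, with adjusted p of 0.0556 at most and for Nat8f5 in 1 of 21 alternatives, with adjusted p of 0.054 at most. The distal calcium channel Trpv5, higher in preconditioned RIRI, had 4.70, 3.47 and 3.30 in normoxic sham and 3.06, 4.22 and 3.35 in normoxic RIRI.

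The 3 injured preconditioned kidneys did not lie equally far from sham. Over the 565 genes raised at least 2-fold, the median log2 level above the sham mean was 1.46, 1.21 and 1.42 in replicates 1, 2 and 3, and over the 461 lowered genes it was -1.44, -1.14 and -1.46. Replicate 2 had the lowest value of the 3 for 69.6% of the raised genes and the highest for 69.8% of the lowered genes. These genes were chosen for the contrast, and the shares describe the order of the 3 mice only. The order was not the same for every list. For tubular injury genes the mean log2 level above sham was 3.39, 2.51 and 3.00, for IL-6, STAT3 and acute phase genes it was 2.31, 1.29 and 1.80, whereas for cell cycle genes replicate 2 was the highest, at 0.42, 1.02 and 0.42, and for chemokines replicate 3 was the lowest, at 1.34, 0.97 and 0.69. Replicate 2 also had the most haemoglobin RNA. Neutrophil genes below the minimum had no common order. Cxcr2 was lowest in replicate 2, Fpr2 was lowest in replicate 3 and Ltf was highest in replicate 2. At such low FPKM this order is uncertain. The part of blood content or infiltrating cells in these differences was not tested. Without replicate 2, 3788 genes were called higher and 2359 lower, and at least 2-fold changes numbered 639 and 545.

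**Figure D5:**
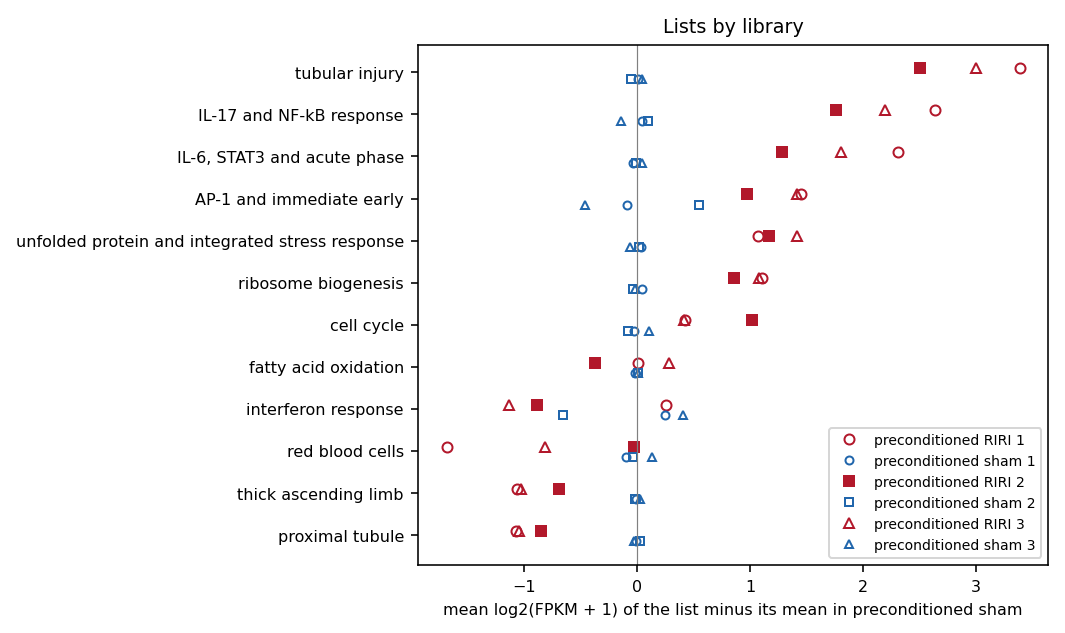
Mean log2(FPKM + 1) of 12 lists in each preconditioned library minus the mean of the 3 preconditioned sham libraries; red symbols are RIRI and blue symbols sham, with circles, squares and triangles for replicates 1, 2 and 3. RIRI replicate 2 (filled squares) lies nearest to sham for tubular injury, the IL-17 and IL-6 lists, AP-1 genes, ribosome biogenesis, red blood cells and both tubule segments, and farthest from sham for cell cycle genes, while replicate 1 lies nearest for the stress response, fatty acid oxidation and interferon lists.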

How the data were processed

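RNA from whole kidneys of 12 mice, 3 in each of 4 groups, was extracted with TRIzol and sequenced with a VAHTS library kit on DNBSEQ-T7, per the labels' protocols. The values are FPKM, which the authors deposited in 1 table of 25553 gene symbols by 12 libraries. Per the submitters' processing notes mm10, HTSeq and DESeq2 were used, with no versions or roles, and the aligner is not given in the sources used here. Proteomic data were not analysed here.

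Genes that reached FPKM 1 in 3 or more of the 6 preconditioned libraries were tested. The test was limma (version 3.58.1, under R 4.3.3) with log2(FPKM + 1) as the response, fitted as 4 group means over all 12 libraries with a mean-variance trend, two-sided, with Benjamini-Hochberg adjustment over the 11934 genes and a threshold of 0.05. The pseudocount of 1 understates changes of low genes. The difference of injury effects is a contrast of the same fit. The labels do not say from which cages or litters mice came, and p-values measure the spread between these mice. The fit was tested on simulated data in which each gene had the same spread in all 4 groups. RIRI kidneys were more unlike each other than sham kidneys, and the simulation does not cover such unequal spread. FPKM were whole multiples of 1 fragment for all 25553 genes within a relative tolerance of 1e-05, which gave whole fragment counts and library totals, and limma voom on these counts was an alternative chosen after seeing the data. Nothing in the labels says that same-numbered mice were paired, and they were treated as unpaired. For RIRI and sham mice of the preconditioned groups, their deviations from the group means correlated at 0.178, 0.070 and -0.061. With 3 mice a group these values cannot decide whether mice were paired.

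Genes were named by rule. The rule took the 12 largest called increases and decreases whose higher group averaged FPKM 5 or more, without overlap, the 2 to 4 called members of each list with the smallest adjusted p in each direction, Il17ra and Traf6, and the genes with the largest called differences, opposite calls or the largest spread, up to 6 each. Predicted genes and pseudogenes were passed over, and a few genes that the rule names are not reported here. Hspa5, Hsp90b1, Pdia4, Pdia6, Dnajb9, Dnajb11, Herpud1, Xbp1, Atf4, Ppp1r15a, Umod, Kcnj1, Aqp2, Slc34a1, Hba-a1, Hba-a2 and the genes below the minimum were named outside the rule, after their values were seen. The members and lists were chosen with earlier results of these data known. Gene positions and promoters are from RefSeq, GRCm38.p6, where 11757 tested symbols matched. Alternatives were other pseudocounts, filters, scalings and variance models, a minimum fold change, a replicate block, and leaving out each library.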

Additional observations from a re-analysis of the deposited data

Results flagged for a closer look

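Of the 162 genes given with values, 86 had an injury effect in preconditioned mice that differed from that in normoxic mice by the test of the difference itself, with adjusted p from limma between 7.15e-05 and 0.0455. The share over all tested genes was 23.7%, and some of the 162 were named because their difference was called. Values are the preconditioned minus the normoxic effect in log2(FPKM + 1), each effect being RIRI minus sham over 3 mice a group. Above 0 were 45 genes. Genes of the nephron and its transport were Hykk (2.53), Cldn10 (2.51), G6pc (2.48), Rhcg (2.38), Gatm (2.35), Hsd11b2 (2.09), Slc12a1 (2.01), Kcnj1 (1.87), Slc13a1 (1.55), Car12 (1.45), Slc4a1 (1.17), Calb1 (1.05), Trpv5 (0.94), Kl (0.82), Lrp2 (0.67), Clic5 (0.57), Atp6v1c2 (0.56), Tfcp2l1 (0.42) and Acsm2 (0.38). Genes of metabolism were Cyp4a12a (2.38), Hsd3b2 (1.91), Nat8f5 (1.47), Khk (0.47), Acad10 (0.40), Me1 (0.39), Etfa (0.37), Ldhb (0.36), Sdha (0.32) and Idh2 (0.30). Chaperone genes of the endoplasmic reticulum and collagen folding were Sdf2l1 (2.60), Pdia4 (1.49), Hspa5 (1.44), Hsp90b1 (1.37), Herpud1 (1.18), Serpinh1 (1.02), Pdia6 (0.90) and Dnajb11 (0.89). The rest above 0 were Ccl28 (2.86), Serpina10 (2.04), C3 (1.43), Nuak2 (1.38), Prr15 (1.34), Slc30a1 (1.23), Stra6l (1.15) and Tmem176b (1.06).

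Below 0 were 41 genes. Injury and repair genes among them were Sprr2f (-3.77), Vgf (-2.71), Akap12 (-2.57), Krt20 (-2.53), Plin2 (-2.50), Lcn2 (-2.11), Cdkn1a (-1.85), Timp1 (-1.13), Spp1 (-0.89), Tnfrsf12a (-0.78) and Col4a1 (-0.56). Immediate early, inflammatory and leukocyte genes were Fosl1 (-2.63), Dusp5 (-2.36), Cd14 (-2.13), Atf3 (-1.23), Myc (-1.12), Socs3 (-0.94), Itgam (-0.82), Ripk3 (-0.78), Stat3 (-0.66) and Bak1 (-0.64). Stress, metal and metabolic genes were Mt1 (-2.21), Srxn1 (-2.07), Mt2 (-1.90), Ppp1r15a (-1.79), Depp1 (-1.75), Adm (-1.62), Slc2a1 (-1.35), Glul (-1.29), Hk2 (-1.27), Atf4 (-0.80), Mthfd2 (-0.77), Psat1 (-0.71), Asns (-0.68) and Pgd (-0.52). The rest below 0 were Fa2h (-1.59), Nos3 (-0.93), Car2 (-0.89), Ncl (-0.60), Kdr (-0.45) and Psmd11 (-0.43). For Vgf and Sprr2f the value is fitted near 0 in sham and is no bound on a fold. 

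For 35 of the 86 genes the call of the difference was lost in at least 1 of 21 alternatives (20 for genes that a filter at FPKM 5 removes), leaving aside a minimum fold change. It was lost in 1 for Bak1, Cd14, Dusp5, Fosl1, Kdr, Krt20, Nat8f5, Ripk3, Sdha, Serpina10, Stra6l, Timp1 and Vgf. It was lost in 2 for Acsm2, Atf3 and Itgam. For Itgam, which is low in sham, the difference also shrank. It was -0.56 by limma with a pseudocount of 0.1 (adjusted p = 0.164) and -0.25 by limma voom on recovered fragments (adjusted p = 0.651). It was lost in 5 or more, with the number in brackets, for Myc (5), Me1 (5), Pgd (6), Asns (7), Serpinh1 (7), Stat3 (7), Tnfrsf12a (7), Calb1 (8), Mthfd2 (8), Plin2 (8), Khk (8), Ldhb (8), Depp1 (9), Tfcp2l1 (10), Socs3 (10), C3 (10), Idh2 (11), Hsd3b2 (12) and Psat1 (12). No test for a single kidney far from its group was run, since groups of 3 are too small for one.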

How the results depend on the processing

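Of the 162 genes given with values, 17 had no value with the filter at FPKM 5. Under the alternatives in which a gene was tested, direction held except in 4 genes that were not called. The injury effect of Dnajb11 was -0.012 with median-ratio scaling and -0.015 with quantile normalization. The injury effect of Cyp4a14 ranged from -0.31 to 0.99 over fits that left out 1 library each. The injury effect of Umod was 0.23 with quantile normalization and ranged from -0.065 to 0.050 without single libraries. The injury effect of Hba-a1 ranged from -1.02 to 0.13. The cause was not tested.

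A minimum log2 fold change of 1 left 182 genes higher and 104 lower in preconditioned RIRI, 691 and 629 in normoxic RIRI, 5 and 3 for the difference of effects, and 3 and 0 lists with over 50 percent of members called higher or lower, which is by construction. Without 1 library at a time, preconditioned RIRI had 3353 to 4223 genes higher and 1969 to 2506 lower, normoxic RIRI 4621 to 5019 and 3359 to 3700, and the difference 959 to 1761 above and 1003 to 1649 below 0. Lists with over 50 percent called numbered 13 to 17 higher and 6 to 8 lower. The median SD over the remaining mice was 0.0837 to 0.107 in preconditioned RIRI and 0.0633 to 0.0746 in preconditioned sham, and with no filter it was 0.0676 and 0.0534, since low genes then enter. In lists with 0 called, leaving out 1 library gave 1 call in the direction given as 0 for cell death genes, TCA cycle genes and cholesterol genes.

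With the replicate block, 3875 genes were higher and 2295 lower, and the difference was called above 0 for 1249 and below 0 for 1333. For 2 of 3 preconditioned RIRI libraries the sham library most alike in its deviations had the same number. With 3 mice a group this cannot decide whether mice were paired. With the block 5 interferon genes were called lower. No filter on low values (25553 genes) gave 4087 and 2784, a filter at FPKM 5 (7800 genes) 2942 and 1692, a pseudocount of 0.1 3926 and 2279, and limma voom 3952 and 2360 with 1519 and 1390 for the difference. With 3 mice a group, genes near 1 FPKM and changes of the size of the median SE of 0.10 could not be resolved.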
